A study of Mus musculus with 8 samples.

Results

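The genes described here are 39 transcripts of the ATF4 pathway and of amino acid supply, out of 53647 gene names counted in mouse leukemia macrophages. They were taken by name: 11 regulators and stress effectors, 8 enzymes of amino acid and one-carbon synthesis, 7 amino acid transporters, 12 cytosolic aminoacyl-tRNA synthetases and the tRNA export receptor Xpot. Of the 39 genes 38 had enough counts to be tested. Stc2, a secreted glycoprotein, did not: Mac 1 had 4 counts and the other Mac libraries 0, while E-Mac 1 to 4 had 4, 6, 0 and 4.

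PolyA RNA had been sequenced from C57BL/6 leukemia macrophages that were sorted after 12 h of culture. In 4 libraries, called Mac, the macrophages had been alone. In the other 4, called E-Mac, they had been co-cultured with mesenchymal stromal cells (MSC, the fibroblast-like support cells of the bone marrow). The labels name no transgene, drug or age, and they do not say which leukemia the macrophages came from or by which markers they were sorted. Whether each library is its own animal or its own dish is not stated either. If not, the p-values capture only sample-to-sample spread, which may be technical.

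ATF4 is a transcription factor of the integrated stress response. Kinases that sense missing amino acids, misfolded protein, heme lack or viral RNA phosphorylate the initiation factor eIF2, general translation slows, and the Atf4 mRNA is then translated more. ATF4 pairs with C/EBP proteins on response elements beside genes that import and make amino acids and charge tRNA, and it also induces its own brakes, among them Trib3. In macrophages such import feeds glutathione through cystine and the growth kinase mTORC1 through leucine. Because ATF4 is set largely by translation, its mRNA level is not its protein level, and no protein was measured here.

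Among macrophage markers, Adgre1 averaged 379 CPM in Mac and 765 CPM in E-Mac, and Csf1r 984 and 1023 CPM. Of the 15 markers 9 rose in E-Mac and 3 fell (edgeR adjusted p under 0.05), against 29.5% and 28.8% of all genes tested. Those that fell were Lyz2 (11204 to 6147 CPM on average), C1qa (90.1 to 45.5 CPM) and Cd163 (6.84 to 1.66 CPM). CPM are counts per 1000000 of a library's counts in tested genes, after scaling with TMM factors. Library totals were 11646025 to 15556935 counts for Mac and 13377046 to 15740846 for E-Mac. The sum of 17 granulocyte markers was 34245 to 38038 CPM in Mac and 11796 to 19038 CPM in E-Mac, all 17 being detected in both groups. It fell in an exact two-sided permutation test, with p = 0.0286, the smallest that 4 against 4 libraries allow, and 0.0343 after Benjamini-Hochberg adjustment over 6 marker lists. The sum of 15 macrophage markers was 13107 to 14168 CPM in Mac and 9622 to 13596 CPM in E-Mac (exact permutation adjusted p = 0.0857). The largest part of this sum was Lyz2, with 11204 of 13853 CPM on average in Mac and 6147 of 11988 CPM in E-Mac. The sum therefore does not show the direction of most of these markers. The sums of 6 B cell markers (232 and 150 CPM on average), 8 T and NK cell markers (17.4 and 4.41 CPM) and 8 erythroid markers (57.8 and 0.304 CPM) were also lower in E-Mac, each with no overlap between the groups.

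A sum of 20 stromal markers fell from 3467 to 1051 CPM, but nearly all of it was Fn1, which macrophages also make. Without Fn1 it was 22.6 to 25.6 CPM in Mac, and 87.5, 451, 68.9 and 503 CPM in E-Mac 1 to 4. E-Mac 2 and E-Mac 4 thus stood apart from E-Mac 1 and E-Mac 3. E-Mac 2 and E-Mac 4 also had higher granulocyte sums, 19038 and 16548 CPM, against 11796 and 12508 CPM in E-Mac 1 and E-Mac 3. Their macrophage sums were lower, 11591 and 9622 CPM against 13144 and 13596 CPM. Of the 12 stromal markers tested 8 rose and 1, Fn1, fell, against 29.5% and 28.8% of all genes tested. The collagen genes Col1a1 (1.13 to 80.3 CPM on average) and Col1a2 (0.154 to 51.1 CPM) rose most in level. Sparc (0.603 to 27.5 CPM), Bgn (0.396 to 18.6 CPM) and Acta2 (11.1 to 29.2 CPM) rose too. These 5 genes were highest in E-Mac 2 and E-Mac 4. The markers Pdgfra, Lum and Dcn averaged 0.363, 0.0688 and 0.0703 CPM in E-Mac. In bulk RNA, fewer cells of a type and less RNA per cell cannot be told apart, and the part of other cells in the results below was not tested. The counts of genes that rose and fell were also taken without E-Mac 2 and E-Mac 4.

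Stretches before the start sites of 5 of the genes show the letters of a C/EBP-ATF response element, TGATGNAA on either strand. They come from the genes with the largest fold changes, in either direction, among those with a match before the start. All are given 5′ to 3′ on the strand of the gene, with the match in capitals, from RefSeq promoters on GRCm38.p6 (mm10). For Asns and Vldlr only 30 bases are shown, since a transcript of each gene in the GENCODE M21 annotation begins further upstream.
Slc7a11, chr3:50443614-50443739, minus strand: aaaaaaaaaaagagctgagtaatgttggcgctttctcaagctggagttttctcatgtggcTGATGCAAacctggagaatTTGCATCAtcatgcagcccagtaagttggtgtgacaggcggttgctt
Asns, chr6:7693214-7693243, minus strand: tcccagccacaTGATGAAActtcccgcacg
Tars, chr15:11399659-11399733, minus strand: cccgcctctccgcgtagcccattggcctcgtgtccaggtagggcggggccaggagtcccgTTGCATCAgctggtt
Vldlr, chr19:27216809-27216838, plus strand: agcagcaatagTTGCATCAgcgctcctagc
Chac1, chr2:119350992-119351116, plus strand: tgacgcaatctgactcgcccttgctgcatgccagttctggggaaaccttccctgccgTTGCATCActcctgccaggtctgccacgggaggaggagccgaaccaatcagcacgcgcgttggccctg

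Slc7a11 held the letters in both directions within the stretch shown. The promoter table reaches from 250 bases before to 50 bases after each start and held 31 of the 39 genes, and 13 of these 31 (41.9%) had a match. A match stood in 4.51% of all 27025 genes with a promoter sequence. By role the match stood in 4 of 10 regulators, 2 of 8 synthesis enzymes, 2 of 5 transporters and 5 of 7 synthetases. It was found in 7 of the 20 genes in the table that rose in E-Mac and in 2 of the 4 that fell, Chac1 and Nupr1, so the letters stood beside genes of both directions. No match was found in 8 other genes of cytosolic tRNA charging or in 14 mitochondrial synthetase genes. With the last letter left free (TGATGNA) the shares were 51.6% of these genes and 13.8% of all, and over the 250 bases before the start 29.0% and 3.91%. A match is a run of letters and not a measured binding site.

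**Figure D1:**
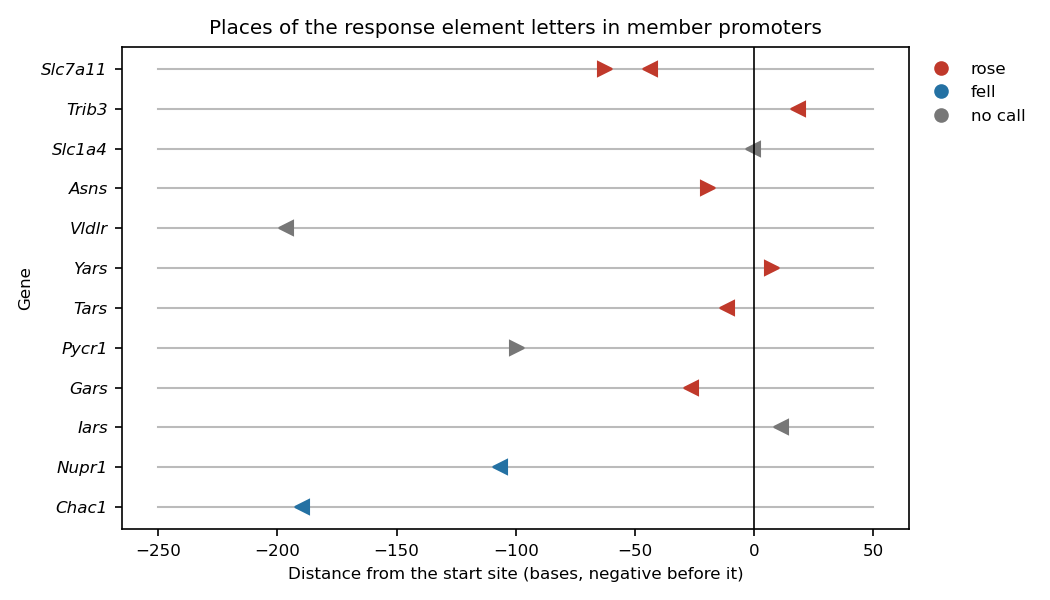
Places of TGATGNAA in the promoters of 12 genes that held it, ordered from the highest to the lowest log2 fold change. The horizontal axis is the distance from the RefSeq start site in bases. Right-pointing marks read on the strand of the gene and left-pointing marks on the other strand, and colours show genes that rose, fell or had no call. Slc7a11 had 2 matches, and Nupr1 and Chac1, which fell, had theirs well before the start.

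Of the 38 genes tested, 26 rose in E-Mac, 5 fell and 7 had no call. A call means an adjusted p under 0.05 in edgeR's quasi-likelihood test across all 13412 genes tested. Much of the transcriptome differed between the groups: 58.3% of all genes were called, 29.5% as higher and 28.8% as lower in E-Mac. Against these shares, 68.4% of the 38 genes rose and 13.2% fell. Those that rose at least 2-fold were 10 (26.3%), against 9.57% of all genes, and none fell at least 2-fold, against 10.5% of all genes. The groups did not overlap in 30 genes (78.9%), against 53.9% of all genes. The median log2 fold change was 0.66, and over all genes it was -0.003. Without E-Mac 2 and E-Mac 4, 27 rose and 4 fell.

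**Figure D2:**
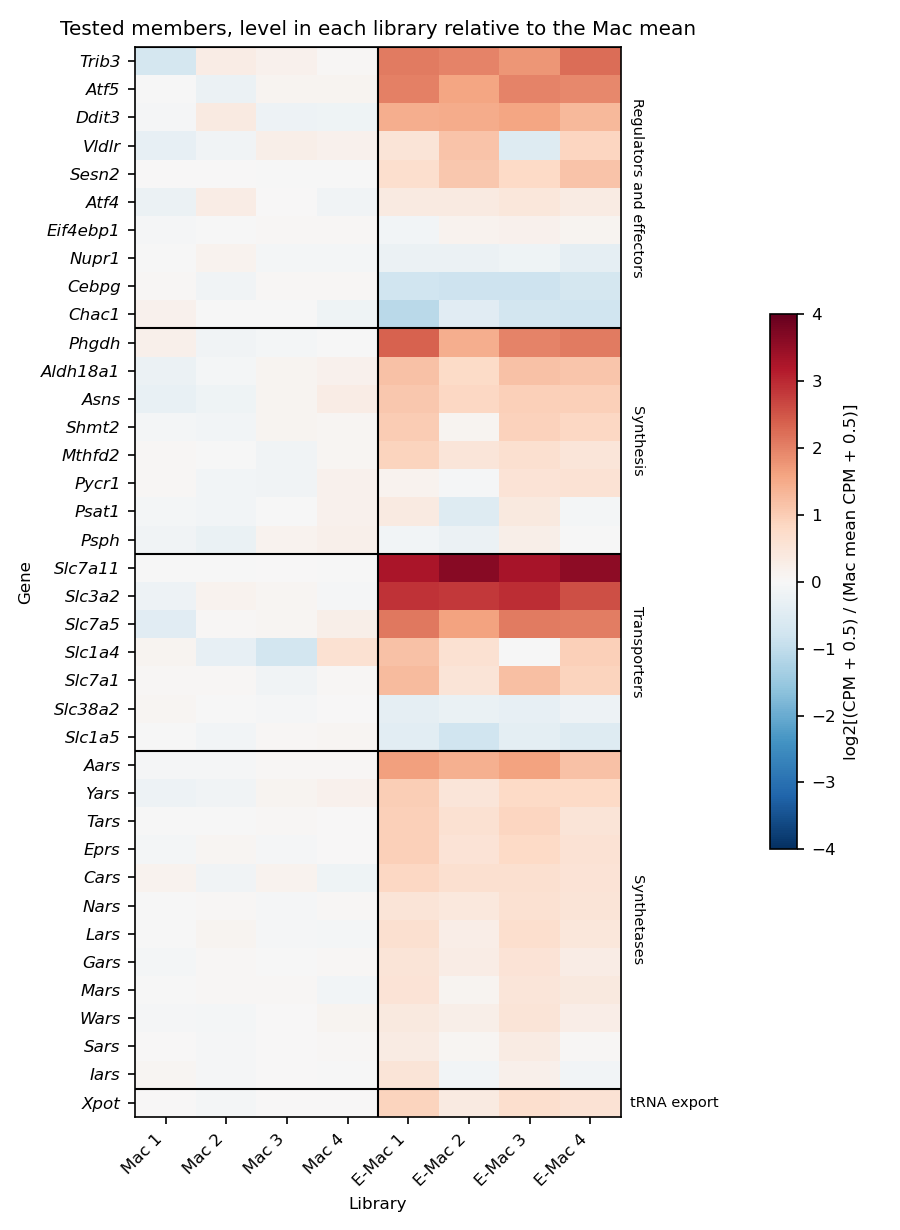
Level of the 38 tested genes (rows, by role and by fold change within a role) in each of the 8 libraries (columns). Colour is the log2 of the CPM over the Mac mean, after 0.5 CPM was added to both. Red cells fill the E-Mac columns of 26 genes that rose, deepest in Slc7a11 and Slc3a2, while Cebpg, Chac1, Nupr1, Slc1a5 and Slc38a2 are blue in all 4 E-Mac libraries.

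Among the regulators and effectors, 5 rose (Trib3, Atf5, Ddit3, Sesn2 and Atf4), 3 fell (Chac1, Cebpg and Nupr1) and Eif4ebp1 and Vldlr had no call. Of the 10 tested 50% rose, against 29.5% of all genes, and 30% fell, near the 28.8% of all genes. The median log2 fold change of the 10 was 0.66. With E-Mac 2 and E-Mac 4 left out it was 0.27, with 4 that rose and 2 that fell, and over the genes with at least 10 CPM in 4 libraries it was 0.33. The mRNA of Atf4 itself rose by a small amount. Atf4 (chr15:80255184-80257541, ENSMUSG00000042406.8) stood at 220, 319, 261 and 235 CPM in the Mac libraries and at 331, 332, 351 and 323 CPM in the E-Mac libraries, each in the order 1 to 4 that is kept below. The E-Mac libraries were close together and all above Mac, with Mac 2 nearest to them. The mean rose from 259 ± 43.7 to 334 ± 11.9 CPM (SD, n = 4 each), a log2 fold change of 0.37 ± 0.10 (SE, adjusted p = 0.00638). Without E-Mac 2 and E-Mac 4 the value was 0.41, but the adjusted p was 0.0976 and the call was lost, as it was with scaling by total counts alone (0.23, adjusted p = 0.0509).

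Trib3, a pseudokinase that binds ATF4 and restrains it, had the largest rise of this group from a low level. It stood at 0.621, 1.75, 1.54 and 1.36 CPM in Mac (10 to 25 counts) and at 7.09, 6.74, 5.66 and 8.12 CPM in E-Mac (84 to 113 counts). The log2 fold change was 2.40 ± 0.26 (adjusted p = 4.48e-06). All E-Mac libraries were well above all Mac libraries.

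Atf5, a related bZIP factor whose mRNA is likewise translated under eIF2 phosphorylation, stood at 6.77, 5.83, 7.43 and 7.46 CPM in Mac and at 29.2, 21.6, 28.4 and 27.2 CPM in E-Mac. All E-Mac libraries were above Mac, with E-Mac 2 the lowest of them. Its log2 fold change was 1.94 ± 0.13 (adjusted p = 3.77e-08).

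Ddit3 encodes CHOP, a C/EBP-family factor tied to prolonged stress and cell death. It stood at 12.4, 16.8, 11.1 and 11.3 CPM in Mac and at 36.0, 36.9, 39.6 and 32.2 CPM in E-Mac. The groups did not overlap, and the log2 fold change was 1.50 ± 0.13 (adjusted p = 5.40e-07). The annotation holds 2 gene models named Ddit3, and the main one shares 68 bases of exon with Mars, which runs towards it on the opposite strand of chromosome 10. The sources used here do not give the strand setting of the counting, and reads of that short stretch cannot be assigned to either gene.

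Sesn2, a leucine-binding stress protein that restrains mTORC1, rose from 38.8 ± 0.597 to 74.4 ± 11.5 CPM, a log2 fold change of 0.94 ± 0.10 (adjusted p = 3.39e-06). It was one of 4 genes that were higher in both E-Mac 2 and E-Mac 4 than in E-Mac 1 and E-Mac 3.

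Cebpg, a C/EBP protein that dimerizes with ATF4, stood at 106, 93.7, 105 and 105 CPM in Mac and at 58.5, 58.0, 57.9 and 62.2 CPM in E-Mac. No library of one group came near the other, and the log2 fold change was -0.79 ± 0.07 (adjusted p = 3.36e-07). Chac1, which degrades glutathione, stood at 4.85, 4.16, 4.18 and 3.70 CPM in Mac and at 1.71, 2.96, 2.36 and 2.23 CPM in E-Mac. All its E-Mac libraries were below Mac, and the log2 fold change was -0.86 ± 0.22 (adjusted p = 0.00388).

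Nupr1, a small stress-induced chromatin protein, stood at 32.1, 35.7, 30.7 and 30.3 CPM in Mac and at 27.3, 27.6, 28.7 and 25.0 CPM in E-Mac. The groups did not overlap but lay close, and the log2 fold change was -0.24 ± 0.09 (adjusted p = 0.0301). The call was lost when Mac 1, Mac 2, E-Mac 1, E-Mac 2 or E-Mac 4 was left out, with values from -0.25 to -0.18, and without E-Mac 2 and E-Mac 4 together (-0.19, adjusted p = 0.106). For Eif4ebp1, the translation repressor 4E-BP1, the log2 fold change was 0.08 ± 0.07 (adjusted p = 0.350). Vldlr, a lipoprotein receptor, was near the floor of detection, with 6, 6, 13 and 12 counts in Mac and 14, 28, 4 and 21 in E-Mac. Its log2 fold change was 0.97 ± 0.51 with no call (adjusted p = 0.117), and 1.31 (adjusted p = 0.0146) without E-Mac 3, the low library. Without E-Mac 2 and E-Mac 4, its 2 high libraries, the value was 0.13.

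**Figure D3:**
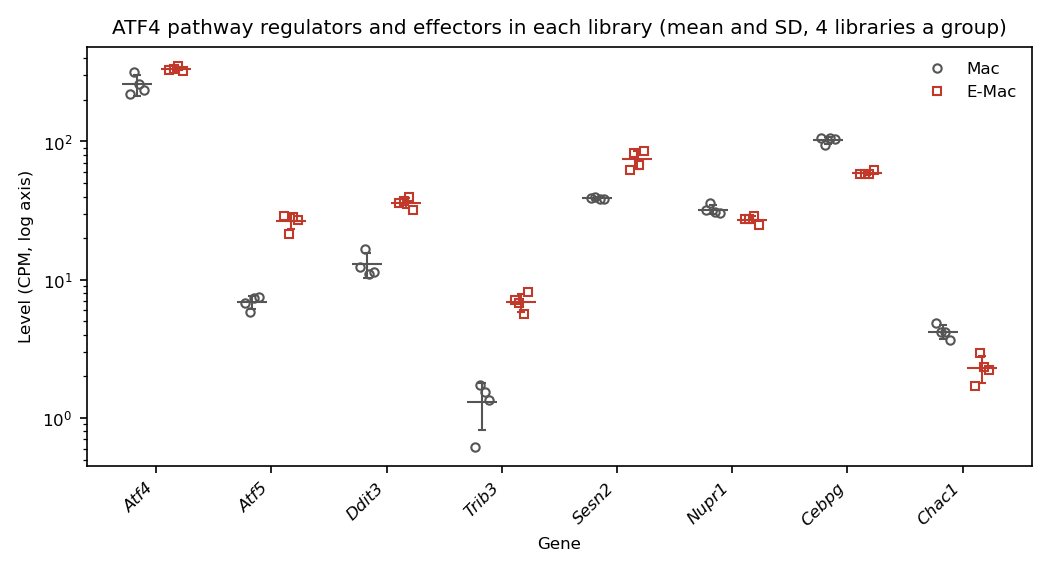
Level of 8 regulators and effectors in each library, in CPM on a log axis. Circles are the 4 Mac and squares the 4 E-Mac libraries, and bars show the mean and SD of a group. Atf5, Ddit3, Trib3 and Sesn2 are separated upwards, Cebpg and Chac1 downwards, and Atf4 and Nupr1 lie close between the groups.

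Of the 8 enzymes of amino acid and one-carbon synthesis, 5 rose, none fell and 3 had no call, with a median log2 fold change of 0.70. Thus 62.5% rose, against 29.5% of all genes, and none fell, against 28.8%. The share called, also 62.5%, was near the 58.3% of all genes. The groups did not overlap in 4 of the enzymes (50%), against 53.9% of all genes. The serine pathway was split. Phgdh, its first enzyme, stood at 6.34, 4.91, 5.10 and 5.30 CPM in Mac and at 29.9, 15.8, 23.0 and 24.3 CPM in E-Mac. All E-Mac libraries were above Mac, E-Mac 2 the least, and the log2 fold change was 2.10 ± 0.18 (adjusted p = 4.41e-07). The 2 enzymes that follow it had no call: Psat1 had a log2 fold change of 0.09 ± 0.18 (adjusted p = 0.691) and Psph one of -0.03 ± 0.18 (adjusted p = 0.901).

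Psat1 varied with the E-Mac library. It stood at 37.9, 37.4, 39.4 and 45.7 CPM in Mac and at 52.1, 27.7, 53.0 and 38.2 CPM in E-Mac 1 to 4. E-Mac 1 and E-Mac 3 were above every Mac library, E-Mac 2 was below every one and E-Mac 4 lay among them. Without E-Mac 2 and E-Mac 4 the log2 fold change was 0.39 with an adjusted p of 0.000352. Psph shares 452 bases of exon (10.4% of its exons) with Cct6a on the opposite strand, and its value is uncertain to that extent.

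Asparagine synthetase, Asns, is the textbook ATF4 target. It stood at 6.65, 7.33, 8.91 and 10.2 CPM in Mac and at 18.2, 14.9, 16.6 and 16.4 CPM in E-Mac. The groups did not overlap, and the level rose 1.99-fold, a log2 fold change of 0.99 ± 0.14 (adjusted p = 5.35e-05). Per kilobase of exon, Asns stood at 3.03 CPM in Mac and 6.04 CPM in E-Mac, below Psat1 at 9.43 and 10.1 CPM. These levels divide by all annotated exons of a gene, which can exceed the transcript in use.

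Aldh18a1, which starts proline synthesis from glutamate, stood at 10.7, 11.9, 13.8 and 14.2 CPM in Mac and at 29.1, 21.7, 29.0 and 28.0 CPM in E-Mac. All E-Mac libraries were above Mac, and E-Mac 2 was below the other 3. Its log2 fold change was 1.09 ± 0.13 (adjusted p = 8.61e-06). Pycr1, which ends proline synthesis in mitochondria, was at 10 to 18 counts in Mac and 13 to 24 in E-Mac and had no call (0.49 ± 0.33, adjusted p = 0.218).

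Shmt2, a mitochondrial enzyme which takes the one-carbon unit from serine, rose by a log2 fold change of 0.76 ± 0.17 (adjusted p = 0.00182), although E-Mac 2 at 23.5 CPM lay within the Mac range of 20.5 to 23.7 CPM. Mthfd2, which acts on that unit next, rose by 0.65 ± 0.10 (adjusted p = 9.33e-05), from 38.5 to 45.4 CPM in Mac to 59.8 to 80.4 CPM in E-Mac. In 5 of the 8 synthesis genes both E-Mac 2 and E-Mac 4 were below E-Mac 1 and E-Mac 3, and without these libraries 6 of the 8 rose.

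The 7 transporters held the largest changes of all 39 genes: 4 rose, each at least 2-fold, 2 fell and 1 had no call, and these counts were the same without E-Mac 2 and E-Mac 4. Of the 7, 57.1% rose, against 29.5% of all genes, and 28.6% fell, near the 28.8% of all genes. The median log2 fold change of 1.15 is that of Slc1a4, which had low counts and no call, and without Mac 4 it was 1.77. Slc7a11 (chr3:49892526-50443614, minus strand, ENSMUSG00000027737.10) encodes xCT, which brings in cystine in exchange for glutamate. It stood at 15.7, 15.8, 16.2 and 15.7 CPM in Mac and at 157, 203, 160 and 195 CPM in E-Mac. Mac was almost constant and every E-Mac library was far above it, with E-Mac 2 and E-Mac 4 the higher. The rise was 11.3-fold, a log2 fold change of 3.49 ± 0.10 (adjusted p = 1.42e-11), and it was 3.33 on the log2 scale without E-Mac 2 and E-Mac 4.

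Slc3a2 (chr19:8706882-8723369, minus strand, ENSMUSG00000010095.13) encodes the heavy chain 4F2hc, which xCT and the large neutral amino acid carriers need to reach the cell surface. It stood at 58.2, 75.4, 71.2 and 66.1 CPM in Mac and at 503, 488, 530 and 406 CPM in E-Mac. All E-Mac libraries were above Mac, with E-Mac 4 the lowest of them. The rise was 7.12-fold, a log2 fold change of 2.83 ± 0.10 (adjusted p = 1.26e-10).

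Slc7a5, the light chain LAT1 that carries leucine and other large neutral amino acids, stood at 9.88, 14.3, 14.4 and 16.3 CPM in Mac and at 61.3, 42.6, 59.7 and 58.4 CPM in E-Mac. Every E-Mac library was above Mac, and E-Mac 2 was below the other 3. It rose 4.04-fold (adjusted p = 2.35e-07). Slc7a1, the arginine and lysine carrier CAT1, rose by a log2 fold change of 1.02 ± 0.14 (adjusted p = 5.04e-05), from 22.7 to 26.1 CPM in Mac to 36.5 to 61.8 CPM in E-Mac.

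Slc1a5 and Slc38a2, which both carry glutamine, fell. Slc1a5, the exchanger ASCT2, stood at 81.0, 74.3, 83.9 and 85.0 CPM in Mac and at 60.6, 46.5, 61.1 and 56.4 CPM in E-Mac. Slc38a2, the sodium-coupled carrier SNAT2 and itself a known ATF4 target, stood at 248, 236, 228 and 238 CPM in Mac and at 186, 198, 189 and 205 CPM in E-Mac. In both genes all E-Mac libraries were below all Mac libraries, and the log2 fold changes were -0.53 ± 0.09 (adjusted p = 0.000205) and -0.29 ± 0.06 (adjusted p = 0.00151). Slc1a4, a carrier of alanine, serine and cysteine, had only 2 to 18 counts in Mac and 8 to 24 in E-Mac and no call (1.15 ± 0.54, adjusted p = 0.0864). It passed the test without Mac 4 (1.77, adjusted p = 0.0245) or without E-Mac 3 (1.41, adjusted p = 0.0399).

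The 5 light chains of 4F2hc in the lists used here all rose, against 29.5% of all genes, a grouping chosen after the values were seen. Slc7a8, the light chain LAT2, belongs to the wider transporter list and rose more than any of the 39 genes, from 26.4, 30.7, 29.4 and 26.6 CPM in Mac to 777, 695, 722 and 556 CPM in E-Mac. Its groups lay far apart, with a log2 fold change of 4.60 ± 0.11 (adjusted p = 5.67e-12). Slc7a7 rose by 0.64 ± 0.13 and Slc7a6 by 0.41 ± 0.11 on the log2 scale (adjusted p = 0.000781 and 0.00592). Per kilobase of exon, Slc3a2 stood at 19.2 CPM in Mac and 137 CPM in E-Mac, and these 5 light chains together at 23.7 and 185 CPM. Slc7a7 had the highest level per kilobase among these light chains in Mac (10.1 CPM) and Slc7a8 in E-Mac (137 CPM).

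**Figure D4:**
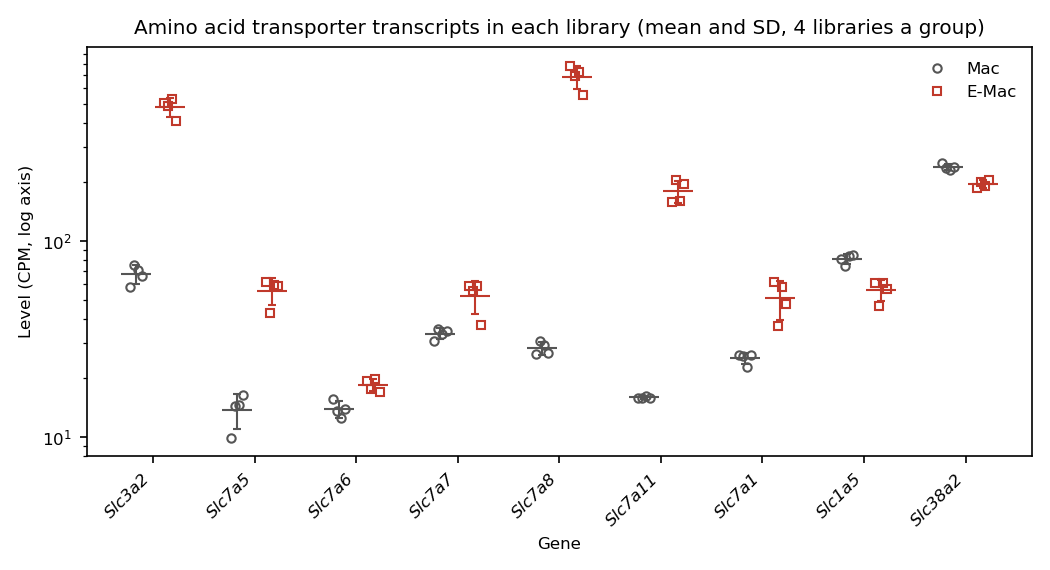
Level of Slc3a2, 5 of its light chains, Slc7a1, Slc1a5 and Slc38a2 in each library, in CPM on a log axis. Circles are Mac, squares are E-Mac, and bars show the mean and SD of 4 libraries. Slc3a2, Slc7a8 and Slc7a11 are farthest apart between the groups, and Slc1a5 and Slc38a2 are lower in E-Mac.

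Of the 12 cytosolic aminoacyl-tRNA synthetases, 11 rose (91.7%, against 29.5% of all genes), none fell and Iars had no call. The median log2 fold change of the 12 was 0.52, and the rises ran from 0.21 (Sars) to 1.48. These enzymes join each amino acid to its tRNA. Aars, for alanine (chr8:111033144-111057664, ENSMUSG00000031960.14), stood apart as the only one that rose at least 2-fold. It stood at 46.4, 46.2, 49.1 and 49.4 CPM in Mac and at 149, 129, 148 and 107 CPM in E-Mac. The groups did not overlap, E-Mac 4 was the lowest E-Mac library, and the log2 fold change was 1.48 ± 0.10 (adjusted p = 3.62e-08). Aars shares 1326 bases of exon (14.3%) with Exosc6 on the same strand, so reads there could belong to either gene.

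Yars, for tyrosine, stood at 17.6, 18.4, 22.1 and 23.1 CPM in Mac and at 40.6, 28.6, 36.0 and 35.4 CPM in E-Mac, a log2 fold change of 0.79 ± 0.12 (adjusted p = 0.000118). Tars, for threonine, stood at 35.5, 35.8, 37.2 and 36.4 CPM in Mac and at 70.9, 54.9, 65.4 and 52.2 CPM in E-Mac, a log2 fold change of 0.75 ± 0.10 (adjusted p = 2.10e-05). In both genes all E-Mac libraries were above Mac.

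Wars, for tryptophan, is also known as an interferon-induced gene. It stood at 54.4, 53.9, 56.8 and 60.8 CPM in Mac and at 74.4, 67.0, 81.3 and 67.3 CPM in E-Mac. The groups did not overlap but lay close, and the log2 fold change was 0.36 ± 0.08 (adjusted p = 0.00169), within the range of the other synthetases.

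The remaining synthetases that rose were Eprs (0.74), Cars (0.68), Nars (0.52), Lars (0.52), Gars (0.43), Mars (0.39) and Sars (0.21), as log2 fold changes, each with all E-Mac libraries above Mac. Sars, for serine, was close to the threshold (adjusted p = 0.0351). It lost its call when any one library other than E-Mac 2 or E-Mac 4 was left out, at values between 0.16 and 0.22, and with upper-quartile or total-count scaling (0.11 and 0.06). Iars, for isoleucine, was at 43.5 to 47.7 CPM in Mac and at 65.3, 42.4, 51.9 and 41.9 CPM in E-Mac 1 to 4, with 2 E-Mac libraries above and 2 below all of Mac. Its log2 fold change was 0.15 ± 0.12 (adjusted p = 0.317), and without E-Mac 2 and E-Mac 4 it was 0.38 with an adjusted p of 0.000499. Per kilobase of exon the 12 synthetases ranged from 3.001 CPM (Eprs) to 27.0 CPM (Nars) in Mac, and these 2 genes were again the lowest and highest in E-Mac (4.996 and 38.9 CPM).

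In 10 of the 12 synthetases both E-Mac 2 and E-Mac 4 were below E-Mac 1 and E-Mac 3, the 2 libraries with the lower stromal and granulocyte sums and the higher macrophage sums. Over the 38 genes this order held for 21 (55.3%) and the opposite order for 4 (10.5%), against 33.0% and 25.8% of all genes tested. This is a description of 4 libraries and was not tested. Without E-Mac 2 and E-Mac 4 all 12 synthetases rose, with a median log2 fold change of 0.63. Xpot, which carries tRNA out of the nucleus, was higher in E-Mac than in Mac by a log2 fold change of 0.64 ± 0.10 (adjusted p = 0.000112), from 39.1 to 42.4 CPM in Mac to 54.0 to 78.2 CPM in E-Mac. Among 4 other genes of nuclear export, Ran rose (0.41) and Nxf1 (-0.36) and Rcc1 (-0.40) fell, with a median of -0.18. Thus 25% rose and 50% fell, against 29.5% and 28.8% of all genes. Without E-Mac 2 and E-Mac 4, 1 rose and 1 fell.

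Synthetases with a separate mitochondrial gene, which charge tRNA for translation inside mitochondria, did not share this direction. Of 17 genes 1 rose (Iars2, 0.32), 9 fell and 7 had no call, with a median log2 fold change of -0.32. The share called, 58.8%, was that of all genes (58.3%), but 5.88% rose and 52.9% fell, against 29.5% and 28.8% of all genes. Leaving out E-Mac 2 and E-Mac 4, 2 rose and 5 fell, and the median was -0.14. Among those that fell were Cars2 (-0.73, adjusted p = 0.000112) and Mars2 (-0.91, adjusted p = 0.000222). Cars2 stood at 29.6, 30.6, 30.3 and 23.5 CPM in Mac and at 18.7, 15.7, 18.7 and 15.7 CPM in E-Mac, so all E-Mac libraries were below Mac. With the other cytosolic synthetases added, 16 of 20 cytosolic genes rose and 2 fell, with a median of 0.47. Gars (0.43) and Kars (0.51) were counted as cytosolic only. The lists hold no separate mitochondrial gene for glycine or lysine, so the comparison does not cover mitochondrial charging with these amino acids. In 14 of 16 pairs of enzymes for the same amino acid the cytosolic gene had the higher log2 fold change, the exceptions being isoleucine (Iars and Iars2) and valine (Vars and Vars2). Eprs, for glutamate and proline, entered 2 pairs, and the difference within pairs was not tested. When E-Mac 2 and E-Mac 4 were left out, the cytosolic gene was again higher in 14 pairs.

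**Figure D5:**
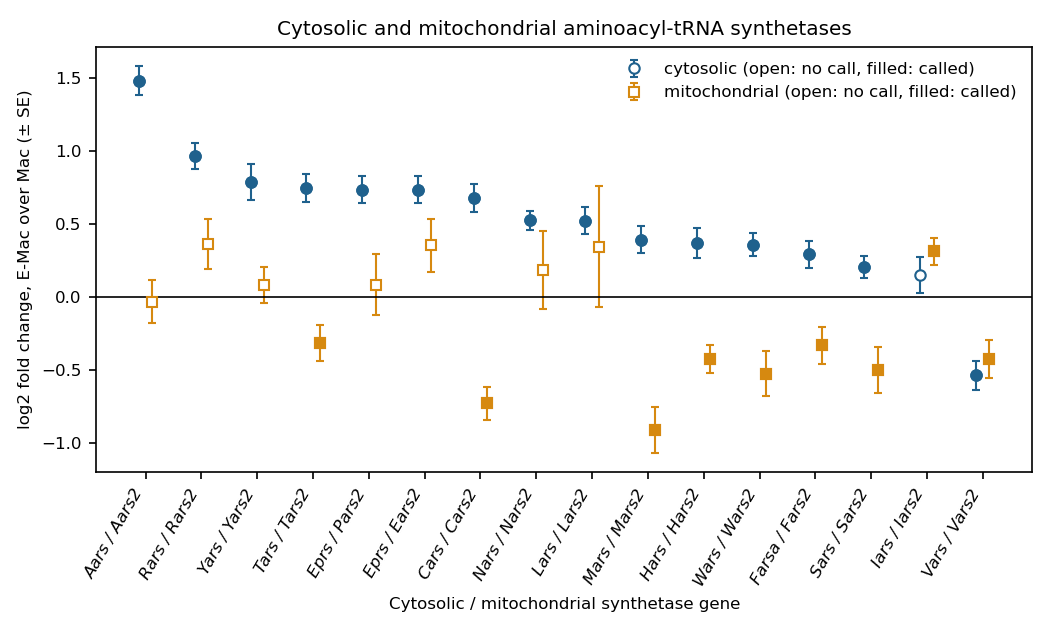
Log2 fold change of E-Mac over Mac (vertical axis, with SE) for 16 pairs of cytosolic (circles) and mitochondrial (squares) synthetase genes for the same amino acid, ordered by the cytosolic value. Filled marks were called and open marks were not. The cytosolic gene is higher in 14 pairs, and Mars2 and Cars2 are the lowest mitochondrial genes shown.

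The other cytosolic genes of tRNA charging were 8 synthetases and 3 scaffold proteins of the multisynthetase complex. Of these 11, 7 rose (63.6%, against 29.5% of all genes) and 2 fell (18.2%, against 28.8%), with a median log2 fold change of 0.37. Rars, for arginine, rose most clearly (0.97, adjusted p = 1.03e-06), followed by Kars for lysine (0.51) and the scaffold protein Eef1e1 (0.91). Vars for valine (-0.54) and Qars for glutamine (-0.25) fell, and 1 gene fell without E-Mac 2 and E-Mac 4.

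Upstream of ATF4, 15 genes of eIF2 and its kinases and phosphatases gave 8 that rose (53.3%, against 29.5% of all genes) and 3 that fell (20%, against 28.8%), with a median log2 fold change of 0.30. Those that rose with the smallest p-values were Eif2ak2 (PKR, the kinase that senses double-stranded RNA, 0.96), Impact (an inhibitor of the amino acid sensor GCN2, 0.93) and Eif2s1 (eIF2 alpha itself, 0.89). Eif2ak3 (PERK, the kinase of the endoplasmic reticulum) fell by 0.39 on the log2 scale, and the phosphatase subunit Ppp1r15b fell by 0.21. Ppp1r15a, the stress-induced phosphatase subunit GADD34 and a known target of ATF4 and CHOP, stood at 83.1, 231, 137 and 102 CPM in Mac and at 24.3, 28.5, 26.8 and 29.2 CPM in E-Mac. All E-Mac libraries were below Mac, Mac 2 was the highest, and the log2 fold change was -2.34 ± 0.32 (adjusted p = 0.000393).

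Of 16 further genes linked to ATF4, 10 were tested, with a median log2 fold change of 0.44. Of these, 6 rose (60%, against 29.5% of all genes) and 1 fell (10%, against 28.8%). Leaving out E-Mac 2 and E-Mac 4, 4 rose and 1 fell. Sqstm1, the autophagy receptor p62, rose by 1.41 (adjusted p = 1.02e-08), Got1, the cytosolic aspartate aminotransferase, by 1.62, and Gdf15, a stress cytokine, by 2.92 from 0.765 to 5.63 CPM. Ddit4, the mTORC1 inhibitor REDD1, stood at 74.0, 64.9, 71.0 and 75.5 CPM in Mac and at 18.5, 23.7, 20.4 and 26.2 CPM in E-Mac. It fell by 1.68 on the log2 scale (adjusted p = 2.03e-08), whereas Sesn2, the mTORC1 inhibitor described above, rose. Atf3, an ATF family factor, had no call (-1.33 ± 0.50, adjusted p = 0.0569). It was at 128, 547, 252 and 141 CPM in Mac and at 126, 102, 118 and 76.5 CPM in E-Mac, so the groups did not overlap but Mac 2 was far above the rest, as it was for Ppp1r15a.

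Beyond the 7 transporters, 13 of 17 other amino acid transporters were tested, with a median log2 fold change of 0.64. Of these, 10 rose (76.9%, against 29.5% of all genes) and 1 fell (7.69%, against 28.8%). After Slc7a8 the smallest p-values were those of the taurine carrier Slc6a6 (1.77, adjusted p = 2.67e-10) and Slc38a7, a lysosomal glutamine carrier (1.03). Slc38a9, the lysosomal arginine sensor, fell by 0.79 on the log2 scale (adjusted p = 1.12e-06). In the list of other enzymes of amino acid metabolism, 18 of 19 were tested, 9 rose (50%) and 4 fell (22.2%), beside 29.5% and 28.8% of all genes. The median was 0.22, and 0.44 without E-Mac 2 and E-Mac 4, when 11 rose and 4 fell. Gcsh of the glycine cleavage system rose by 2.42, and the arginine-making pair Ass1 and Asl by 1.85 and 0.91. Glul, glutamine synthetase, stood at 315, 341, 343 and 340 CPM in Mac and at 80.5, 88.0, 83.4 and 80.4 CPM in E-Mac, 4.03-fold lower with no overlap (adjusted p = 5.20e-11). Glud1 (-0.69) and Prodh (-0.83), which break down glutamate and proline, fell too.

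Among 20 genes of amino acid sensing by mTORC1, 19 were tested, 10 rose (52.6%, against 29.5% of all genes) and 4 fell (21.1%, against 28.8%), with a median log2 fold change of 0.23. The 3 with the smallest p-values that rose were the GTPase Rragc (0.98, adjusted p = 4.55e-08), its activator Flcn (0.57) and the mTORC1 subunit Rptor (0.51). Sesn3, a relative of Sesn2, fell by 0.95 (adjusted p = 5.64e-05), Eif4ebp2 by 0.35 and the GTPase Rraga by 0.27, all on the log2 scale.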

How the data were processed

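The authors deposited 1 table of raw read counts per gene symbol. Tools listed in the submitters' processing notes, without versions, are HISAT2, featureCounts of Subread, bcl2fastq and DESeq2, with the build mm10. The sources used here do not give the annotation or how strand and multi-mapped reads were treated. Of 53673 names, 26 were dates made from gene symbols and were left out (0.133 to 0.160% of counts).

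The test was the quasi-likelihood test of edgeR 4.0.16 (R 4.3.3), robust, with group as the only term. It used TMM factors and the filterByExpr minimum of 10 counts and 15 in total, and p-values were adjusted over 13412 genes by Benjamini-Hochberg. The SE is the log2 fold change divided by the square root of F. The fit was tested on simulated data with far fewer changed genes than here and the same replicate spread for every gene. That test does not cover data in which so many genes differ. Exon lengths, coordinates and overlaps came from GENCODE M21. Libraries of 1 group always differed by more than counting noise (chi-square over its degrees of freedom 4.85 or higher).

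The genes and lists were chosen with earlier results of these data known. Values in every library are given for the 3 largest rises and falls called in each role and for Atf4, Ddit3, Asns, Slc7a11 and Wars, and for a few other genes chosen after their values were seen. From each other list the 3 genes with the smallest adjusted p in each direction are named. Results for 1 gene and 1 promoter are not reported here. Castor1 and Castor2 were matched by older symbols. Alternatives were RLE, upper-quartile and total-count scaling, DESeq2 1.42.0, limma-voom (limma 3.58.1), no filter, a filter of 10 CPM in 4 libraries, a replicate block, a threshold of 0.01, and libraries left out.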

Additional observations from a re-analysis of the deposited data

Results flagged for a closer look

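In 9 of 90 sets of 4 libraries, 1 library lay so far from the other 3 that its gap to the nearest, as a share of the whole range, passed Dixon's critical value for 4 samples. Chance alone gives about 1 such set in 20. Among the regulators, Cebpg was at 93.7 CPM in Mac 2, against 105 to 106 CPM in the other Mac libraries, and at 62.2 CPM in E-Mac 4, against 57.9 to 58.5 CPM. Eif4ebp1 was at 79.0 CPM in E-Mac 1, against 93.4 to 95.8 CPM in the other E-Mac libraries. Stc2 was at 0.248 CPM in Mac 1 (4 counts) and at 0 in the other Mac libraries. Aldh18a1 was at 21.7 CPM in E-Mac 2, against 28.0 to 29.1 CPM, and Slc7a5 at 42.6 CPM in E-Mac 2, against 58.4 to 61.3 CPM. Slc7a1 was at 22.7 CPM in Mac 3, against 25.8 to 26.1 CPM, and Xpot at 39.1 CPM in Mac 2, against 42.3 to 42.4 CPM. The T and NK cell marker sum was 20.9 CPM in Mac 1, against 15.9 to 16.7 CPM in the other Mac libraries. None of these libraries crossed into the range of the other group for Cebpg, Aldh18a1, Slc7a5, Slc7a1 or Xpot.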

How the results depend on the processing

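Of the 31 genes called, 28 kept their direction and call under each of the 18 alternatives that could be run on them. Atf4, Nupr1 and Sars each lost the call in 1 or more, and none of the 31 reversed. The number that rose ran from 24 to 27 and the number that fell from 4 to 5. Scaling by total counts alone moved the median of all genes by -0.14 on the log2 scale and gave 2996 higher and 5018 lower calls, against 3954 and 3860. Under it Atf4 was at 0.23 (adjusted p = 0.0509) and Sars at 0.06 (adjusted p = 0.524).

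Genes with no call changed sign in places. Under upper-quartile scaling Eif4ebp1 was at -0.013 and Psat1 at -0.0086, and under total-count scaling they were at -0.0612 and -0.0523. Leaving out 1 library gave Psat1 values from -0.0267 to 0.2676 and Psph values from -0.1287 to 0.057. Psph was at 0.0004 with no filter and at 0.0764 without E-Mac 2 and E-Mac 4. The stromal marker sum, lower in E-Mac with all members, was 11.5 times higher without Fn1 and 30.5 times higher over collagen genes alone. These 2 sums were added after seeing the data. The cause of these changes was not tested, except that total counts shift every gene and that a filter changes the genes tested.

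No sign was seen that the replicate numbers pair the libraries: same-numbered libraries had correlations of -0.142 to 0.067, and 1 of 4 Mac libraries correlated best with its own number. Such correlations over 4 numbers cannot show that the libraries were unpaired, and the labels do not say. With the replicate block 7458 genes were called, against 7814, and 26 of the 38 genes rose and 5 fell. Sars then had an adjusted p of 0.0567 and Slc1a4 one of 0.0313.

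Vldlr, Slc1a4 and Pycr1 had low counts and no call, which does not show that their levels were equal. The counts of the other lists without E-Mac 2 and E-Mac 4 were added after seeing the data.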
